A study of Mus musculus with 2 samples.

Results

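The 40 genes described here act in mitosis and in the G2 phase that precedes it. They were taken by name from an expression table of 37172 genes and all 40 had a row. The table covers epithelial cells of mouse intestinal organoids, which are clusters of epithelium grown from crypts of the small intestine. Collagen organoids were grown in type I collagen and formed hollow cysts, and Matrigel organoids were grown in Matrigel, a basement membrane extract, and formed buds. Both came from wild-type C57BL/6 mice and were harvested on day 4, and both media held EGF (50 ng/mL), Noggin (100 ng/mL) and R-spondin1 (400 ng/mL). The collagen medium also held Wnt3a (100 ng/mL), nicotinamide (10 mM) and 1% BSA. Collagen organoids were released with collagenase (0.5 mg/mL) and Matrigel organoids with a solution free of enzymes, so the matrix, the medium and the release cannot be told apart. Cells of each culture carried their own hashtag, a DNA barcode on an antibody to the epithelial surface protein EpCAM, and were pooled into 1 cDNA library on BD Rhapsody beads.

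After filtering, 336 collagen cells held 42540314 counts and 1599 Matrigel cells held 285201649 counts. The median depth was 124619 counts per collagen cell and 179044 per Matrigel cell. Each culture was 1 cell suspension. Cells of 1 suspension are not replicates, so no test between the cultures was possible, and differences are given as counts scaled to a total of 1000000 per culture (CPM) with 95% intervals that cover counting error only. All 2090 barcodes of the table were distinct. The 5 epithelial markers summed to 6031 CPM in collagen cells and 3145 CPM in Matrigel cells, and all were detected in both. Markers of cells that the gut wall could have carried over were near 0 in collagen and in Matrigel cells: immune markers summed to 1.28 CPM in collagen and 1.06 CPM in Matrigel cells, and fibroblast markers to 0.731 CPM in collagen and 0.760 CPM in Matrigel cells.

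A dividing cell enters mitosis when Cdk1, bound to cyclin A or B, is activated. Microtubules of the spindle then attach to kinetochores, the protein plates on centromeres, and a checkpoint holds the cell until every chromosome is attached. The anaphase-promoting complex ends this phase by marking cyclin B for destruction, and cytokinesis splits the cell. Many of these genes are switched off outside G2 and mitosis through a promoter element called the CHR, the cell cycle genes homology region, which binds the MuvB core of the DREAM and B-MYB complexes. In the intestine, dividing cells lie in the crypt and stop dividing as they differentiate.

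Summed over all cells, the mitotic genes had nearly the same total in both cultures, 1105 CPM in collagen cells and 1055 CPM in Matrigel cells. Of the 40 genes, 39 reached 5 CPM in at least 1 culture. Kif2c, a microtubule depolymerase, stayed below with 3.75 CPM in collagen cells and 3.90 CPM in Matrigel cells. The ratio was taken as log2 of collagen over Matrigel with 1 CPM added, which understates the ratio of low genes. Below, higher or lower by 2-fold means a ratio of 2 or more in that direction. By this ratio 3 of 39 were higher by 2-fold in collagen cells, 0 were lower by 2-fold and 36 lay in between. Over all 10593 genes that reached 5 CPM, 8.21% were higher and 8.91% lower by 2-fold, so the share of higher members (3 of 39) was close to that of all genes. The median log2 ratio was 0.02 over the members and -0.02 over all genes. Above 0 were 21 of 39 members and 5173 of 10593 genes.

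The members above 2-fold were 1 spindle gene and 2 kinetochore genes. Hmmr, a microtubule-binding protein of the spindle, had 33.8 CPM (32.0 to 35.5) in collagen cells and 11.9 CPM (11.5 to 12.3) in Matrigel cells, a log2 ratio of 1.43. Cenpf, a large coiled-coil protein of the outer kinetochore, had 45.4 CPM (43.4 to 47.5) in collagen cells and 16.5 CPM (16.0 to 17.0) in Matrigel cells, a log2 ratio of 1.41. Cenpe, a kinesin motor that carries chromosomes along microtubules, had 42.6 CPM in collagen cells and 20.6 CPM in Matrigel cells, a log2 ratio of 1.01. None of the 3 intervals overlapped between the cultures. This does not set them apart, since small differences also had intervals apart, as for Racgap1 (log2 ratio -0.12). Cenpe lay at the threshold and was under it in 5 of the alternative settings.

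The cyclins and entry kinases lay on both sides of 0. Cdk1, the kinase that drives entry, had 26.2 CPM in collagen cells and 46.3 CPM in Matrigel cells, a log2 ratio of -0.80 and the lowest of all members measured. Ccna2, which encodes cyclin A2, had 31.0 CPM in collagen cells and 42.6 CPM in Matrigel cells. Ccnb2, which encodes cyclin B2, had 89.2 CPM in collagen cells and 63.4 CPM in Matrigel cells, a log2 ratio of 0.49. Ccna2 and Ccnb2 thus differed in direction. The other cyclin B gene, Ccnb1, had 25.9 CPM in collagen cells and 25.6 CPM in Matrigel cells, with intervals that overlapped. The kinases Plk1 (log2 ratio -0.09) and Aurka (-0.22) lay between these.

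The chromosomal passenger complex corrects faulty attachments and later sits at the midzone. All 4 of its genes were below 0 in log2 ratio, and none passed 2-fold. Together they had 116 CPM in collagen cells and 165 CPM in Matrigel cells. Over all 10593 genes, 5173 were above 0. Cdca8, which encodes borealin, had 37.5 CPM in collagen cells and 60.6 CPM in Matrigel cells. Aurkb, the kinase of the complex, had 7.55 CPM in collagen cells and 12.3 CPM in Matrigel cells. The scaffold gene Incenp stood at a log2 ratio of -0.63 and Birc5, which encodes survivin, at -0.28.

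The other kinetochore and checkpoint genes lay on both sides of 0, with a median log2 ratio of 0.05 over all 11, which was -0.11 as a mean over cells of CPM. Mad2l1, the checkpoint protein that holds back Cdc20, had 37.7 CPM in collagen cells and 54.9 CPM in Matrigel cells. Bub1b, another inhibitor of Cdc20, had 7.39 CPM in collagen cells and 10.4 CPM in Matrigel cells. Both checkpoint inhibitors were lower in collagen without reaching 2-fold. Cenpa, the histone H3 variant of centromeres, had 69.8 CPM in collagen cells and 68.7 CPM in Matrigel cells. The microtubule-binding NDC80 complex showed no common direction, with log2 ratios of 0.05 for Ndc80, -0.27 for Nuf2 and 0.06 for Spc25. The checkpoint genes Bub1 (0.10), Bub3 (0.07) and Ttk (-0.12) were near 0.

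Of the 8 spindle genes measured, 7 were above 0, with a median log2 ratio of 0.33. The count above 0 was 6 of 8 after thinning, and 6 of 8 with culture set by a hashtag share of at least 95%. Over all 10593 genes, 5173 were above 0. Among 23 other motor and spindle genes outside the 40, 4 were above 0, with a median of -0.52. Tpx2, which activates Aurora A on spindle microtubules, had 26.3 CPM in collagen cells and 17.7 CPM in Matrigel cells. Ckap2l, a spindle protein, had 10.4 CPM in collagen cells and 6.24 CPM in Matrigel cells. The exception was Kif11, the motor that pushes spindle poles apart, with 8.30 CPM in collagen cells and 11.4 CPM in Matrigel cells. Nusap1 (0.39), Ckap2 (0.26), Tacc3 (0.13) and Kif4 (0.13) completed the group.

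Among the genes of the midzone and cytokinesis, Anln, which encodes the ring protein anillin, had 13.3 CPM in collagen cells and 7.95 CPM in Matrigel cells. Kif23 and Racgap1 encode the partners of the centralspindlin complex, yet Kif23 had 38.3 CPM in collagen cells and 26.4 CPM in Matrigel cells, while Racgap1 had 28.1 CPM in collagen cells and 30.7 CPM in Matrigel cells. Anln and Kif23 had intervals apart between the cultures, and those of Racgap1 did not meet either. Prc1, Kif20a and Kif20b were between -0.28 and -0.11 in log2 ratio. Both exit genes were above 0: Cdc20, the activator of the anaphase-promoting complex, had 34.8 CPM in collagen cells and 27.2 CPM in Matrigel cells, and Ube2c, its ubiquitin-conjugating enzyme, had 86.2 CPM in collagen cells and 72.4 CPM in Matrigel cells. Over all 10593 genes, 5173 were above 0. The proliferation markers split. Mki67, which coats mitotic chromosomes, had 65.5 CPM in collagen cells and 45.7 CPM in Matrigel cells, whereas Top2a, the enzyme that untangles DNA, had 33.5 CPM in collagen cells and 52.1 CPM in Matrigel cells.

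**Figure D1:**
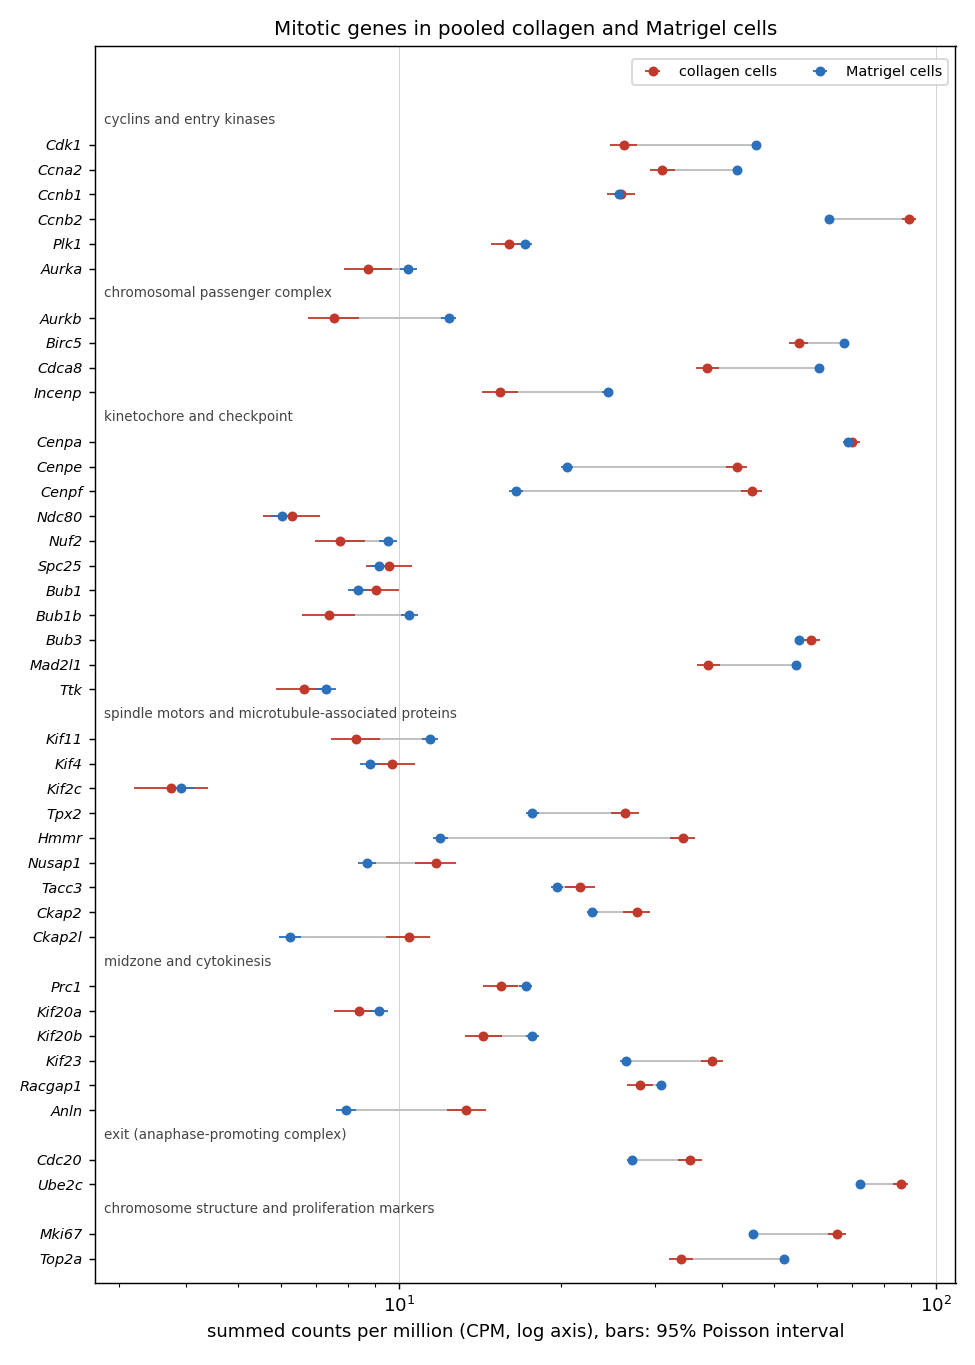
Summed CPM of each of the 40 mitotic genes in collagen cells (red) and Matrigel cells (blue) on a log axis, by function, with bars for the 95% Poisson interval and grey lines joining both cultures. Hmmr, Cenpf and Cenpe lie farthest apart with collagen to the right, and all 4 passenger complex genes have collagen to the left.

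The promoters of 35 members were found in the RefSeq table of build GRCm38.p6, which gives 250 bases before to 50 bases after each transcript start. They were searched on both strands for the CHR (TTTGAA or TTCGAA) and for the CCAAT box (CCAAT), a site of the factor NF-Y that often lies upstream of a CHR. In Cdca8 a CHR match and a CCAAT match share 1 letter, and both were counted. The promoters shown are those of the 3 members above 2-fold in all cells, of Ccnb2 and of Cdk1, the lowest member in ratio. Ccnb2 and Anln join the 3 in the cells with most mitotic RNA. The Anln promoter is not shown and holds 2 CHR matches and no CCAAT box. Capitals mark CHR and CCAAT matches, and ATTGG is a CCAAT box on the opposite strand.
Hmmr promoter, chr11:40733388-40733687, minus strand: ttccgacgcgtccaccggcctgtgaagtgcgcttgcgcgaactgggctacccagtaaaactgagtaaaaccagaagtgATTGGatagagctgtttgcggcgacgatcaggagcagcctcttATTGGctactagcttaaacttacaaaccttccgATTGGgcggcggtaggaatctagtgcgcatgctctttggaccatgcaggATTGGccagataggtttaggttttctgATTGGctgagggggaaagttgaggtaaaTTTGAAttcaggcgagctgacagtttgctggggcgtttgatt
Cenpf promoter, chr1:189688037-189688336, minus strand: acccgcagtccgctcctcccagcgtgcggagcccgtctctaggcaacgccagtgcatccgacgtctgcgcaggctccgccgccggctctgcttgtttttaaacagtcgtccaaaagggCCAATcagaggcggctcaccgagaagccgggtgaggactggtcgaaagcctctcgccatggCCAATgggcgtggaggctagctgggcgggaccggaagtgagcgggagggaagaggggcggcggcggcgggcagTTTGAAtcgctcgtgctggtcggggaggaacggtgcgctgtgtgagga
Cenpe promoter, chr3:135212313-135212612, plus strand: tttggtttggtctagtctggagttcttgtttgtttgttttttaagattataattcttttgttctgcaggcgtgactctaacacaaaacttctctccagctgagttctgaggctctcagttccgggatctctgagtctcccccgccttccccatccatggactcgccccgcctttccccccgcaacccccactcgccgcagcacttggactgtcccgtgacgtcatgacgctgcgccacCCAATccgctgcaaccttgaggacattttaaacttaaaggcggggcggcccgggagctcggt
Ccnb2 promoter, chr9:70421505-70421804, minus strand: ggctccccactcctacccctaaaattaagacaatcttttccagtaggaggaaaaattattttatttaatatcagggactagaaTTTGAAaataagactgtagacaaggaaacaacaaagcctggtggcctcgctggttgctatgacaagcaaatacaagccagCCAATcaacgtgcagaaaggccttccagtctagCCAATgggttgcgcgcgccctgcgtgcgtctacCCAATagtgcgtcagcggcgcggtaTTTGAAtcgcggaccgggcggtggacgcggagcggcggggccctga
Cdk1 promoter, chr10:69352863-69353162, minus strand: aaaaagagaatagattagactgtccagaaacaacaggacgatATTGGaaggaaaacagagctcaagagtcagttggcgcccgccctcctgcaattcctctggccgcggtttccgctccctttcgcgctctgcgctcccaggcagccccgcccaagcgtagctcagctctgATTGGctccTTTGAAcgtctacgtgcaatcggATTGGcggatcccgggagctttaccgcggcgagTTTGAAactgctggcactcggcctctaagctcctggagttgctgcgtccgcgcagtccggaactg
Hmmr, Cenpf, Ccnb2 and Cdk1 each hold a CHR within 50 bases of the start, at 9, 3, 5 and -15, with CCAAT boxes upstream. The Cenpe window holds 1 CCAAT box and no CHR letters.

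Across the members, 25 of 35 (71.4%) had a CHR between 50 bases before and 50 bases after the start, against 4.53% of the 8059 genes that reached 5 CPM and had a promoter, and 6.12% of all 27025 genes in the promoter table. In the whole window 28 of 35 (80.0%) held a CHR, against 16.6% of the genes that reached 5 CPM. A CCAAT box was in 26 of 35 (74.3%), against 43.5% of the genes that reached 5 CPM. Both motifs were in 24 of 35 (68.6%), against 7.06%. Among 24 genes of a DNA replication list 1 (4.17%) had a CHR near the start and 17 (70.8%) had a CCAAT box. The members with a near CHR did not stand apart in their ratio between the cultures, with a median log2 ratio of 0.05 over the 25 with one and 0.07 over the 10 without. A match of letters is a description and does not show that a factor was bound.

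**Figure D2:**
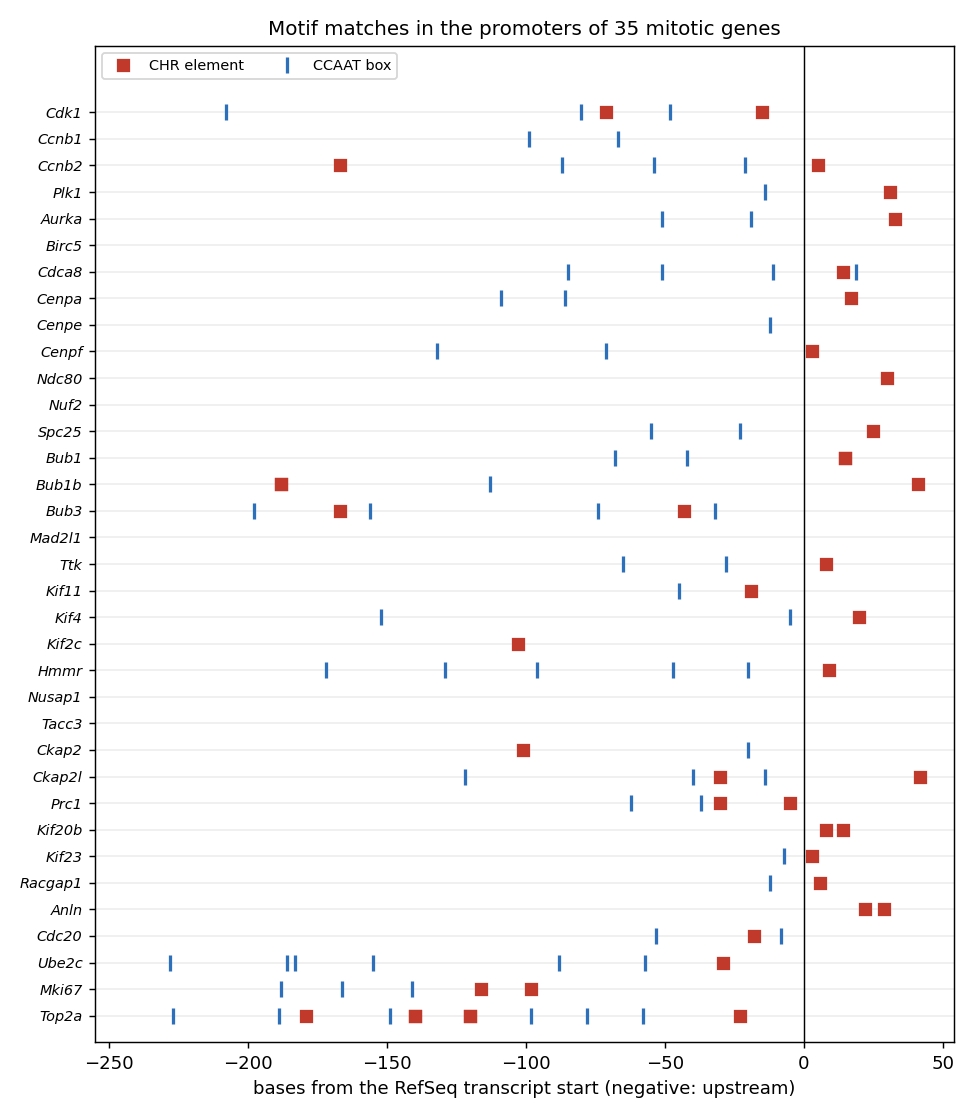
Positions of CHR matches (red squares) and CCAAT boxes (blue bars) in the promoters of 35 mitotic genes, in bases from the RefSeq transcript start. Most CHR matches lie within 50 bases of the start; Prc1 and Bub3 have 2 starts each, and the matches of both are drawn on 1 row.

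In single cells, the mitotic level was spread more widely in collagen than in Matrigel. The summed level of the 40 genes had a median of 317 CPM per collagen cell and 648 CPM per Matrigel cell. At the lower end, the percentile 10 was 63.2 CPM in collagen cells and 158 CPM in Matrigel cells. At the upper end the order turned, with a percentile 90 of 3161 CPM in collagen cells and 2315 CPM in Matrigel cells, and a highest cell of 8402 CPM in collagen and 6517 CPM in Matrigel. The mean per cell was 988 CPM in collagen and 997 CPM in Matrigel, so the difference lay in the shape of the distribution.

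Cells were called module-high at 1565 CPM, the level exceeded by 20% of cells with both cultures weighted equally. By this measure 63 of 336 collagen cells (18.75%, 14.7 to 23.3, Clopper-Pearson) and 340 of 1599 Matrigel cells (21.3%, 19.3 to 23.4) were high, with intervals that overlapped. The call cuts a continuous range, and 9 collagen and 69 Matrigel cells lay within 10% below it and 2 collagen and 45 Matrigel cells within 10% above it. At a cut exceeded by 10% of cells, 11.6% of collagen cells and 8.44% of Matrigel cells were high, and at a cut exceeded by 30% 27.1% of collagen cells and 33.0% of Matrigel cells were, so which culture had more high cells depended on the cut. After each cell was thinned to 77858 counts, 20.1% of collagen cells and 20.3% of Matrigel cells were high.

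The level within the high cells differed more than their share. The median module level was 3282 CPM in high collagen cells and 2261 CPM in high Matrigel cells, and in the remaining cells it was 235 CPM in collagen and 464 CPM in Matrigel. High cells held 71.4% of all mitotic counts of the collagen culture and 55.0% of those of the Matrigel culture. In cells thinned to equal depth, the median number of members with a count was 31 in high collagen cells and 29 in high Matrigel cells. In the remaining cells it was 6 in collagen and 11 in Matrigel. As a background, 80 Matrigel cells that were highest in enterocyte genes were read in the same way. Enterocytes no longer divide, but these cells were chosen by marker level alone and were not shown to have stopped dividing. Of these 7 (8.75%, 3.59 to 17.2) were module-high and their median module level was 236 CPM, near that of the remaining collagen cells. The median depth was 148983 counts in high and 122395 in remaining collagen cells, and 189454 in high and 176922 in remaining Matrigel cells. The part of depth in the difference was not tested beyond thinning.

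**Figure D3:**
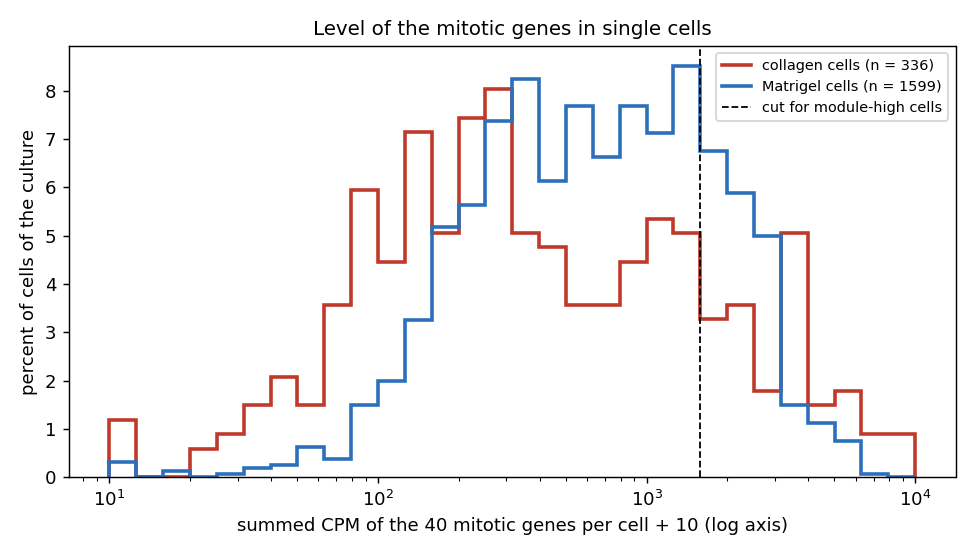
Percent of cells of each culture by the summed CPM of the 40 mitotic genes per cell plus 10 (log axis), in collagen cells (red) and Matrigel cells (blue), with the dashed line at the module-high level. Collagen cells have the lower percentile 10 (63.2 CPM, against 158 CPM in Matrigel cells) and the higher percentile 90 (3161 CPM, against 2315 CPM in Matrigel cells).

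The share of cells with a count was also read gene by gene. In cells thinned to 77858 counts (264 collagen and 1477 Matrigel cells, while 72 collagen and 122 Matrigel cells were too shallow), the share of cells with a count was lower in collagen for 34 of 40 members, 22 of them with intervals apart, and it was higher with intervals apart for 2. Over the 10593 genes tested, the share was lower in collagen for 62.5%, with intervals apart for 37.1%, and it was higher with intervals apart for 15.1%. A lower share in collagen was thus common among all genes too. Cdk1 was found in 33.0% of collagen cells and 61.2% of Matrigel cells (unthinned, 33.6% of collagen and 66.0% of Matrigel cells). Cdca8 was found in 36.0% (30.2 to 42.1) of collagen cells and 64.6% (62.1 to 67.0) of Matrigel cells (unthinned, 37.2% of collagen and 67.6% of Matrigel cells). The 2 members with a higher share in collagen were Cenpf and Hmmr. Cenpf was found in 41.3% (35.3 to 47.5) of collagen cells and 27.7% (25.4 to 30.1) of Matrigel cells (unthinned, 40.2% of collagen and 32.1% of Matrigel cells). Hmmr was found in 29.2% (23.8 to 35.1) of collagen cells and 20.8% (18.7 to 22.9) of Matrigel cells (unthinned, 26.8% of collagen and 24.5% of Matrigel cells).

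The enterocyte-gene-high Matrigel cells gave a background for these shares, although it held module-high cells, which raise it. Among the 71 enterocyte-gene-high Matrigel cells deep enough to thin (median depth before thinning of all 80, 198044 counts), 31.0% had Cdk1, 38.0% Cdca8, 7.04% Cenpf and 11.3% Hmmr. Without the 6 module-high cells among the 71, an alternative added after the values were seen, the background was 29.2% for Cdk1, 32.3% for Cdca8, 3.08% for Cenpf and 4.62% for Hmmr. With or without them, the background for Cdk1 and Cdca8 lay inside the collagen interval, so the collagen shares of these genes over all cells could not be told from it. Before thinning, Cdca8 had a count in 92.2% of high and 24.3% of remaining collagen cells. Over all members the collagen share was at or below background for 3 of 40, and for 1 without the module-high cells. The background lay within or above the collagen interval for 14, and for 10 without them. The tenth of cells with most counts of a gene held a median over members of 77.5% of its collagen counts and 58.7% of its Matrigel counts, and the collagen value was larger for 38 of 40. It was also larger for 88.5% of all genes tested, with medians of 43.9% in collagen and 35.2% in Matrigel, so a larger value in collagen was common to most genes.

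To compare levels among cells rich in mitotic RNA, each gene was read in the cells that were high for the other 39. This gave 61 to 65 collagen and 332 to 350 Matrigel cells. All 40 members reached 5 CPM there. Relative to Matrigel, 5 of 40 were higher by 2-fold in collagen and 0 lower, where 8.66% of all genes were higher and 6.28% lower. The median log2 ratio was 0.38 over the members and 0.08 over all genes, and 34 of 40 were above 0. Of all genes, 55.9% were above 0. Counting intervals were apart for 24 members higher in collagen and 3 lower. Of the 10593 genes that reached 5 CPM over all cells, they were apart for 38.2% with collagen higher and 28.3% with collagen lower. High collagen cells also had the higher median module level, 3282 CPM against 2261 CPM in high Matrigel cells, and members rise and fall together across cells. Ratios above 0 for most members thus in part restate that difference in level and are not a test.

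The 5 were Hmmr, Cenpf, Cenpe, Ccnb2 and Anln. Hmmr had 127 CPM (120 to 134) in high collagen cells and 44.2 CPM (42.6 to 45.9) in high Matrigel cells. Its quartiles over the high cells were 47.9 and 184 CPM in collagen and 0 and 68.0 CPM in Matrigel. Cenpf had 127 CPM (120 to 134) in high collagen cells and 48.4 CPM (46.7 to 50.1) in high Matrigel cells. For both genes the median high collagen cell, at 113 CPM for Hmmr and 108 CPM for Cenpf, lay above the upper quartile of high Matrigel cells, at 68.0 CPM for Hmmr and 71.0 CPM for Cenpf. Cenpe had 144 CPM (136 to 152) in high collagen cells and 59.5 CPM (57.7 to 61.5) in high Matrigel cells. Ccnb2 had 211 CPM (202 to 220) in high collagen cells and 98.9 CPM (96.5 to 101) in high Matrigel cells. Anln had 46.8 CPM (42.6 to 51.4) in high collagen cells and 22.4 CPM (21.3 to 23.6) in high Matrigel cells. The Anln difference lay in fewer cells, with a median cell at 15.8 CPM in collagen and 11.2 CPM in Matrigel.

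Other members also had higher levels in high collagen cells without reaching 2-fold. Tpx2 had 104 CPM in high collagen cells and 56.3 CPM in high Matrigel cells. Cdc20 had 137 CPM in high collagen cells and 75.7 CPM in high Matrigel cells. Mki67 had 208 CPM in high collagen cells and 117 CPM in high Matrigel cells. By contrast Cdk1, which was lowest in the pooled ratio, was level among high cells, with 89.4 CPM (83.6 to 95.6) in collagen and 87.2 CPM (84.9 to 89.6) in Matrigel. Ccna2 had 110 CPM in high collagen cells and 107 CPM in high Matrigel cells. The passenger genes Aurkb, Cdca8 and Incenp were the 3 members whose intervals were apart with collagen lower, and Cdca8 had 128 CPM (121 to 136) in high collagen cells and 145 CPM (142 to 148) in high Matrigel cells.

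The pooled deficit of Cdk1 therefore sat in the cells that were not module-high. There 27 members reached 5 CPM in at least 1 culture, and 12 of these were lower by 2-fold and 2 higher in collagen, where 11.1% of all genes were lower and 8.40% higher. A gene that reached 5 CPM in Matrigel alone had to be lower in collagen, and 8 of the 12 reached it in collagen too. Cdk1 had 7.55 CPM in remaining collagen cells and 34.8 CPM in remaining Matrigel cells, a log2 ratio of -2.06. Top2a had 9.09 CPM in remaining collagen cells and 32.0 CPM in remaining Matrigel cells. Cdc20 had 4.60 CPM in remaining collagen cells and 13.4 CPM in remaining Matrigel cells. The exceptions were again Cenpf, with 21.8 CPM in collagen and 7.24 CPM in Matrigel, and Hmmr, with 6.60 CPM in collagen and 2.53 CPM in Matrigel. The median log2 ratio over the 27 was -0.87.

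**Figure D4:**
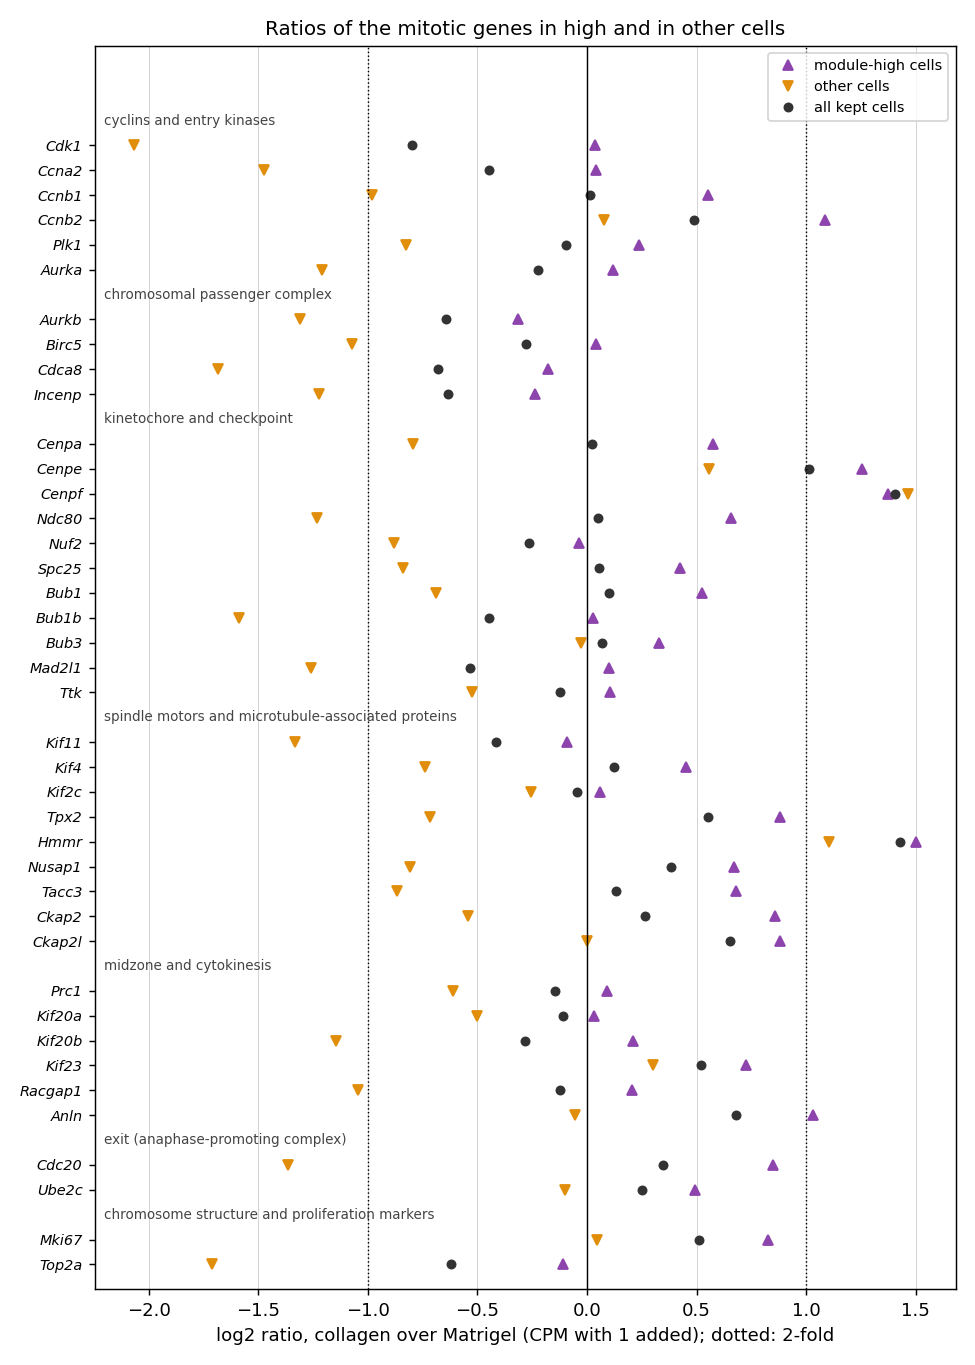
Log2 ratio of collagen over Matrigel CPM for each mitotic gene in module-high cells (purple, upward triangles), in the remaining cells (orange, downward triangles) and in all cells (black), with dotted lines at 2-fold. The purple points lie mostly right of 0 (34 of 40) and the orange points mostly left of it, with Cenpf and Hmmr right of the 2-fold line in both.

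The contrast between high and remaining cells was accordingly steeper in collagen. Because the high cells were chosen by the other members, these ratios describe how closely each gene follows the list and are not a test. In collagen 39 of 40 members were higher by 2-fold in high than in remaining cells, with a median log2 ratio of 3.39, where 6.07% of all genes were higher and 2.11% lower. In Matrigel 38 of 40 were, with a median of 2.27, where 1.53% of all genes were higher and 0.774% lower. The ratio was larger in collagen for 39 of 40. Bub3 followed the list least in both cultures. It had 78.0 CPM in high and 53.0 CPM in remaining collagen cells, and 62.0 CPM in high and 53.9 CPM in remaining Matrigel cells. Bub3 also had the lowest correlation with the other members across cells, at 0.19 in collagen and 0.04 in Matrigel (Pearson r of log levels). The median over members was 0.57 in collagen and 0.52 in Matrigel, and Ccna2 reached 0.76 in both. Ccnb2 was under 2-fold in Matrigel (log2 ratio 0.90), with 98.9 CPM in high and 52.7 CPM in remaining cells, whereas in collagen it had 211 CPM in high and 55.6 CPM in remaining cells.

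The genes outside the list that followed it most closely were ranked by the lower of their r in both cultures among 8360 genes. The first was Hmgb2, a chromatin protein, at 0.70 in collagen and 0.76 in Matrigel. Hmgb2 had 1155 CPM in high and 158 CPM in remaining collagen cells, and 1180 CPM in high and 485 CPM in remaining Matrigel cells. Pclaf, a PCNA-binding protein, came second at 0.73 in collagen and 0.67 in Matrigel. The mitotic kinase gene Nek2 followed, and after it came Melk, the condensin genes Ncapd2 and Ncapg, the kinetochore gene Spc24, Cip2a, Pbk and Cdca3. Cells of a culture share 1 library, and r also carries their common depth.

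The DNA replication list, which marks the S phase before G2, stood far from the mitotic genes. In the pooled counts 28 of its 30 genes were lower by 2-fold in collagen cells and 0 higher. Over all genes, 8.91% were lower and 8.21% higher. The median log2 ratio over the list was -1.63. Replication-high cells, called at an equally weighted level like the mitotic ones, were 5.36% (3.21 to 8.33) of collagen cells and 34.6% (32.3 to 37.0) of Matrigel cells. Among module-high cells, 7 of 63 collagen cells (11.1%, 4.59 to 21.6) and 121 of 340 Matrigel cells (35.6%, 30.5 to 40.9) were also replication-high. Per replication-high cell there were thus more module-high cells in collagen, 63 beside 18, than in Matrigel, 340 beside 554. These counts hold at the levels used, and the replication level was not varied.

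Within each culture the high cells were also read for replication genes. In collagen, 19 of 30 replication genes were higher by 2-fold in module-high than in remaining cells, with a median log2 ratio of 1.21. Over all genes, 6.07% were higher and 2.11% lower there. In Matrigel 1 of 30 was higher and 1 lower, with a median of 0.07. Over all genes, 1.53% were higher and 0.774% lower in Matrigel, so these counts were near the shares of all genes. The median replication level was 662 CPM in high and 258 CPM in remaining collagen cells, and 1443 CPM in high and 1614 CPM in remaining Matrigel cells. Remaining Matrigel cells thus carried more replication RNA than the high collagen cells. The rank correlation between the mitotic and the replication level was 0.58 in collagen and 0.33 in Matrigel, as a description across cells.

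**Figure D5:**
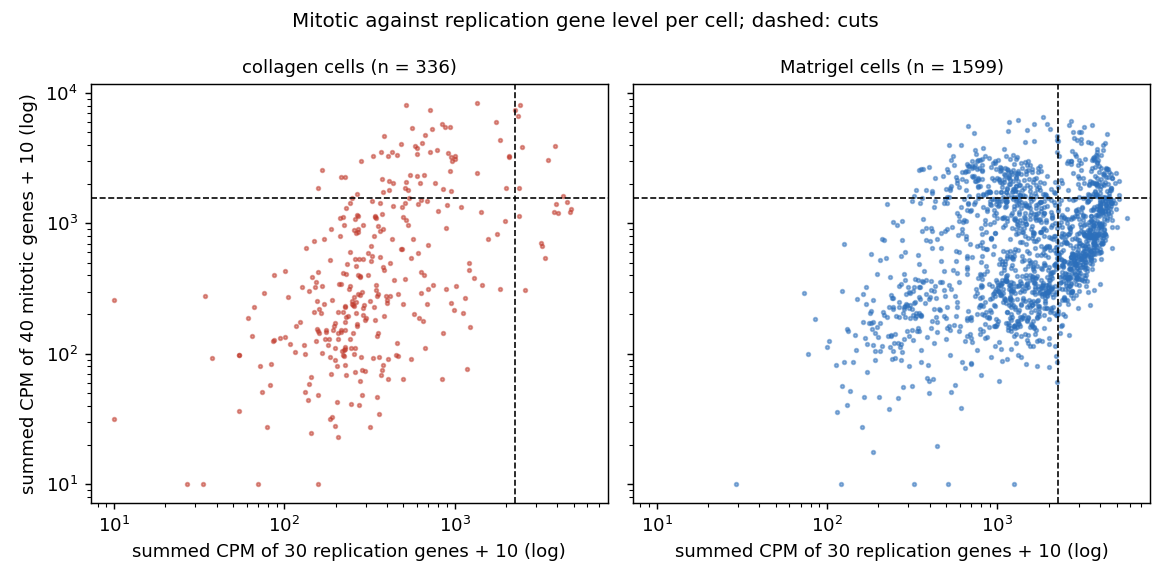
Summed CPM of the 40 mitotic genes against that of 30 replication genes per cell (both plus 10, log axes), with collagen cells on the left and Matrigel cells on the right; dashed lines mark the levels for high cells. In Matrigel, 27.1% of cells lie in the lower right field, high for replication only, against 3.27% of collagen cells.

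Further genes of mitosis, which are not among the 40, were read by list, beside 8.21% higher and 8.91% lower by 2-fold over all genes. Of 23 further kinetochore and checkpoint genes measured, 0 were higher and 3 lower by 2-fold (median log2 ratio -0.43). Of 15 condensin and cohesin genes 0 were higher and 1 lower (-0.44), and of 27 entry and exit regulators 0 were higher and 4 lower (-0.24). Among condensin and cohesin genes the lower share was near that of all genes. Wee1, the kinase that holds Cdk1 inactive, had 5.75 CPM in collagen cells and 19.0 CPM in Matrigel cells, and Pkmyt1, a kinase with the same target, had 11.7 CPM in collagen cells and 26.4 CPM in Matrigel cells. Of 23 other motor and spindle genes 1 was higher and 5 lower (-0.52). Stmn1, which destabilises microtubules, had 132 CPM in collagen cells and 380 CPM in Matrigel cells, while Kif3a, a motor of cilia and transport, had 25.6 CPM in collagen cells and 8.46 CPM in Matrigel cells.

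Of 25 activators and repressors of mitotic genes, 1 was higher and 8 lower by 2-fold (median -0.66). Over all genes, 8.21% were higher and 8.91% lower. E2f1, a transcription factor of the G1 to S step, had 9.16 CPM in collagen cells and 25.2 CPM in Matrigel cells. Rbl1, which encodes the pocket protein p107, had 4.98 CPM in collagen cells and 13.9 CPM in Matrigel cells. Cdkn1a, which encodes the Cdk inhibitor p21, was the gene higher in collagen, with 314 CPM (309 to 319) in collagen cells and 78.3 CPM (77.3 to 79.3) in Matrigel cells. Within collagen, Cdkn1a had 243 CPM in module-high cells and 335 CPM in the remaining cells. In Matrigel it had 68.0 CPM in high and 81.3 CPM in remaining cells. The share of thinned cells with a count ran the other way, at 94.5% of high and 87.1% of remaining collagen cells, and 72.0% of high and 67.7% of remaining Matrigel cells. Of thinned collagen cells, 22.2% (17.1 to 28.1) of those with Cdkn1a and 10.0% (2.11 to 26.5) of those without were module-high, with intervals that overlapped. No order of Cdkn1a between high and remaining cells was read from these values.

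Markers of secretory cells were lower in module-high than in remaining cells, and tuft and enterocyte markers varied by culture. In collagen the 5 Paneth markers summed to 0.626 CPM in module-high cells and 2170 CPM in the remaining cells, the 5 goblet markers to 19.5 CPM in high and 1223 CPM in remaining cells, and the 5 enteroendocrine markers to 0.156 CPM in high and 881 CPM in remaining cells. In Matrigel the Paneth markers summed to 288 CPM in high and 986 CPM in remaining cells, the goblet markers to 296 CPM in high and 1258 CPM in remaining cells, and the enteroendocrine markers to 0.233 CPM in high and 268 CPM in remaining cells. Paneth, goblet and enteroendocrine markers were thus lower in the high cells of both cultures. The sums do not show how many cells carried these markers, and the high collagen cells numbered 63. The 4 tuft markers were near 0 throughout, with 5.10 CPM in high and 5.39 CPM in remaining collagen cells, and 5.46 CPM in high and 9.36 CPM in remaining Matrigel cells. All 5 Paneth markers lack low values in the table, and 2 of them, Defa30 and Ang4, were listed at 0 in every collagen cell. Krt20, a keratin of the villus tip, had 9.18 CPM in high and 136 CPM in remaining collagen cells, and 1.05 CPM in high and 10.1 CPM in remaining Matrigel cells. Alpi, the brush border alkaline phosphatase, had 22.5 CPM in high and 106 CPM in remaining collagen cells, and 25.1 CPM in high and 41.6 CPM in remaining Matrigel cells. Enterocyte markers summed as a list were not lower in high collagen cells, with 1568 CPM in high and 1473 CPM in remaining cells. They were lower in high Matrigel cells, with 575 CPM in high and 1244 CPM in remaining cells. Fabp1 made up most of the collagen sum, with 1287 CPM in high and 1059 CPM in remaining cells. Apoa1, like Alpi, was lower in high collagen cells, with 13.5 CPM against 38.2 CPM in the remaining cells. The collagen sum of the list thus mainly follows Fabp1.

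Stem and regenerative markers did not separate high from remaining cells by 2-fold in either culture, except Olfm4 in collagen, which had 16.7 CPM in high and 35.4 CPM in remaining cells and a count in 3 of 264 thinned cells. Lgr5, the crypt stem cell receptor, had 34.2 CPM in high and 32.7 CPM in remaining collagen cells, and 117 CPM in high and 139 CPM in remaining Matrigel cells. Ly6a, the gene of the surface protein Sca1 that marks repairing epithelium, had 221 CPM in high and 235 CPM in remaining collagen cells. Clu, another regenerative marker, had 260 CPM in high and 396 CPM in remaining collagen cells, a log2 ratio of -0.60. The share of thinned cells with a Clu count ran the other way, at 80.0% of high and 68.9% of remaining collagen cells. Of thinned collagen cells with a Ly6a count, 25.6% (18.1 to 34.4) were module-high, against 16.8% (11.1 to 23.9) of those without, with intervals that overlapped. Muc3, a membrane mucin of absorptive cells, went the other way, since 14.0% (8.99 to 20.4) of thinned collagen cells with Muc3 and 30.8% (22.3 to 40.5) of those without it were module-high. Ly6a, Clu and Olfm4 also lack low values. The smallest were 6 counts for Ly6a, 10 counts for Clu and 12 counts for Olfm4, so a cell listed at 0 may have had fewer.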

How the data were processed

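One cDNA library and one hashtag library were made from pooled cells of both cultures, and cell names in the deposited table set the culture. The submitters' processing notes name cutadapt 4.1, STARsolo 2.7.10a, R 4.2.1 and the GRCm39 build, with no role or order. The authors deposited unscaled expected counts for each gene in each cell. Of member values above 0, 97.3% were whole within 1e-06, and Ccnb1 had most fractions (18.3%). The authors also deposited whole counts of 11 hashtags, and 9 of these belong to no culture in the labels and were not used. Collapsing of copies of a molecule is not stated in the labels, and intervals are too narrow if copies were counted.

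Kept cells had 500 or more genes and no more than 30% mitochondrial counts (336 of 336 collagen and 1599 of 1615 Matrigel), and 139 cells named as doublets were left out. No further doublet caller was run. Counts were summed per culture, rounded for exact Poisson intervals and scaled to CPM; Clopper-Pearson intervals were used for shares, both at 95%. Genes entered at 5 CPM in either group, with 1 CPM added before log2. No p-value was computed, because each culture is 1 suspension and cells are not replicates. The scripts ran in Python 3.11.15 with numpy 2.4.6, scipy 1.17.1, pandas 2.3.3 and matplotlib 3.10.9, and were tested on simulated counts. The 40 members were given by name. They, the 6 gene lists, the markers and the module-high level were chosen with earlier results of these data known. Other genes were named as the most changed of each list (up to 4), the 10 most like and 5 most opposite in level, and fixed markers; Hmgb2, Pbk and the other genes alike were ranked by Pearson r of log2 levels. Promoters came from RefSeq, build GRCm38.p6, for 35 of 40 members, and no genome of the build of the files was used. Alternatives varied the scaling, depth, pseudocount, filters, hashtag rule and module-high level.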

Additional observations from a re-analysis of the deposited data

How the results depend on the processing

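No paired analysis was possible because each culture was 1 cell suspension with no replicate number, and for the same reason no replicate could be left out. Over all settings, no gene past 2-fold changed direction. Of the values for single genes, 562 stayed on the same side of 2-fold, 7 fell below it and 4 passed it. The 562 include values under a changed minimum CPM, which leaves each ratio as it was, so these could not move. The sign of the log2 ratio changed under at least 1 setting for 8 members, all within 0.13 of 0 as reported. Cenpe was under 2-fold with a log2 ratio of 0.90 to 1.00 in 5 settings. With thinned cells 1 member was at least 2-fold lower (Aurkb, -1.07), and with a hashtag share of at least 95% another 1 was (Cdk1, -1.03). The members' median was -0.11 as a mean over cells of CPM and -0.082 with a hashtag share of 95%. A minimum of 20 CPM left 22 members. The replication median was -1.78 as a mean over cells, -1.31 with a pseudocount of 5 CPM, -1.50 with a hashtag share of 60% and -1.82 with one of 95%. A share of 60% placed 50 doublet-named cells in collagen and 54 in Matrigel.

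The module-high share was 11.6% of collagen and 8.44% of Matrigel cells at a cut exceeded by 10% of cells, 27.1% and 33.0% at 30%, and 40.8% and 58.7% at an Otsu threshold. With the mean of scaled log2 values it was 16.7% of collagen and 23.4% of Matrigel cells. At the 10% cut, the median log2 ratio in high cells was 0.21, and Cenpf (0.98) and Anln (0.97) were under 2-fold there while Cdc20 (1.16) was above it. Mki67 in high cells was above it as a mean over cells (1.06). Without Hmmr, Cenpf and Cenpe, an alternative chosen after their ratios were seen, the median level was 302 CPM per collagen and 624 CPM per Matrigel cell, and 2999 CPM in high collagen and 2118 CPM in high Matrigel cells. The causes of these shifts were not tested. Kif2c and the genes of the other lists under 5 CPM in both cultures were left out of the pooled counts by that fixed minimum.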

Other observations

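Genes whose level ran most against the mitotic level were Chd9 (Pearson r of -0.34 in collagen and -0.26 in Matrigel), Myo15b, Plac8, Lrrc26 and Gsta1. All 5 had higher levels in collagen cells, by 2-fold or more. Plac8 had 1828 CPM in collagen cells and 373 CPM in Matrigel cells, and Gsta1, a glutathione transferase, had 2317 CPM in collagen cells and 73.4 CPM in Matrigel cells.

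Among thinned collagen cells, 24.7% (18.9 to 31.4) of those with a count of the cyclin D1 gene Ccnd1 were module-high, against 9.09% (3.41 to 18.7) of those without. In Matrigel 23.4% (21.1 to 25.9) of thinned cells with Olfm4, a crypt stem cell gene, were module-high, against 13.8% (9.85 to 18.6) of those without. The levels did not follow these shares. Ccnd1 had 242 CPM (232 to 252) in high and 230 CPM (225 to 235) in remaining collagen cells. Olfm4 had 1587 CPM in high and 1652 CPM in remaining Matrigel cells, the other way from its share. No order of either gene between high and remaining cells was read from these values. The cells with a count may also be deeper or better captured, which was not tested.

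The 139 cells named as doublets had a mitotic total of 947 CPM, against 1105 CPM in collagen cells and 1055 CPM in Matrigel cells. The longest coding transcript of a gene was nearly unrelated to its log2 ratio of collagen over Matrigel, with a Spearman rho of 0.04 over 9601 genes and 0.15 over 39 members, as a description across genes. The 2 members of at least 8000 bases, Cenpf (log2 ratio 1.41) and Mki67 (0.51), had a median of 0.96. All 535 genes of that length had a median of 0.05. Just under that length were Cenpe (7910 bases, log2 ratio 1.01) and Mad2l1 (7557 bases, -0.53).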
